A study of Rattus norvegicus with 63 samples.

Results

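The lateral hypothalamus of rats that self-administered cocaine for 1 h a day, called short access, was set against that of rats with 0 h a day, called no access. The arrays were those titled lateral hypothalamus with short or no access, 8 of the 63 arrays of the series, with 4 in each group. Every non-control probe set was considered, 1263 in all, and 718 were bright enough to be tested. Long access rats, with 6 h a day, gave 4 further arrays of the same region. They entered the fit and are given beside the results.

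Per the series' design text, each access group held 8 rats, and cocaine was taken intravenously at 0.25 mg per injection. The no access rats were drug-naive, and the labels do not say what they received in place of the drug. Strain, sex, age and the length of training are not given in the sources used here. The labels do not say whether an array held the RNA of 1 rat or of several, so the p-values below measure the spread between arrays, part of which may be technical.

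The lateral hypothalamus is a zone of mixed cells through which much of the traffic between forebrain and midbrain passes. Its neurons release peptides, GABA or glutamate, and it is known for driving feeding, arousal and reward seeking, including through projections to the dopamine neurons of the ventral tegmental area. Astrocytes clear transmitter there, and oligodendrocytes sheathe the fibres of the medial forebrain bundle, which crosses it.

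The dissected tissue carried high levels of hypothalamic peptides. Oxt, the oxytocin precursor, had signals of 7644, 9310, 7844 and 8735 in short access arrays, against 9753, 8650, 9566 and 8614 in no access arrays. The groups overlapped (difference -0.13 log2, SE 0.08, adjusted p = 0.243). Its mean log2 level was 13.03 with short access and 13.16 with no access in the lateral hypothalamus, and the highest mean among the other 5 regions was that of the amygdala, 8.56 with short access and 8.94 with no access. Oxytocin is made mainly by neurons of the paraventricular and supraoptic nuclei, which lie beside the lateral zone. Hcrt, Pmch and Cartpt, which mark the lateral zone itself, have no probe set under those names on the array, so their levels could not be read.

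Array controls differed between the groups before any gene was considered. The 6 probe sets that read the opposite strand of actin and Gapdh averaged 6.84 ± 0.17 log2 with short access and 8.13 ± 0.21 with no access (SD, n = 4 each; difference -1.29; two-sided exact permutation p = 0.0286, the smallest that 4 against 4 arrays can give, and 0.05 after Benjamini-Hochberg adjustment over 14 such measures). The 9 bacterial spike-in probe sets averaged 11.61 ± 0.27 log2 with short access and 12.05 ± 0.14 with no access, again without overlap. Ratios of 3' to 5' probe sets, a sign of RNA integrity, overlapped for actin (exact permutation p = 0.343) and Gapdh (p = 0.886). With the opposite-strand controls as a covariate, 0 probe sets passed the limma test and 114 had an unadjusted p under 0.05. Standard errors were then 3.54 times as large at the median, and 140 of the 161 probe sets called below kept their direction. The part of these control signals in the results was not tested further.

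**Figure D1:**
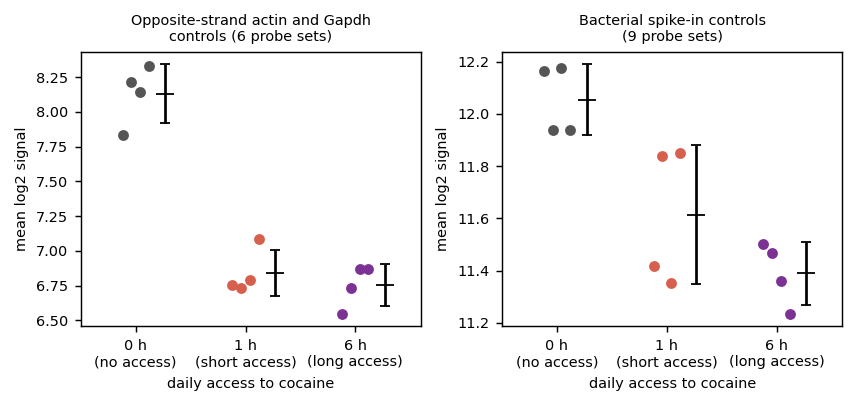
Mean log2 signal of the opposite-strand actin and Gapdh controls (left) and of the bacterial spike-in controls (right) on each lateral hypothalamus array, by hours of daily access. Points are arrays and bars the mean and SD of 4. The no access arrays lie above all short and long access arrays in both panels.

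Short access was accompanied by moderate changes in many genes, split about evenly between directions. Of 718 probe sets tested, 161 (22.4%) passed an adjusted p of 0.05 in limma. Of these, 74 (10.3%) were higher with short access, standing for 51 genes and 11 probe sets without a gene name, and 87 (12.1%) were lower, standing for 65 genes and 8 unnamed probe sets. Differences were small for the most part. The median was 0.52 log2 among the higher probe sets and -0.56 among the lower ones, only 6 rose and 4 fell by 2-fold or more, and 66 changed by at least 1.5-fold. The higher ones were brighter, with a median signal of 1208, than the lower ones at 593 and all those tested at 368. The 4 arrays of each group did not overlap in 142 of the 161, against 186 of 718 (25.9%) over all probe sets tested. Across all tested probe sets the median difference was -0.07. An unadjusted p under 0.05 was reached by 262.

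**Figure D2:**
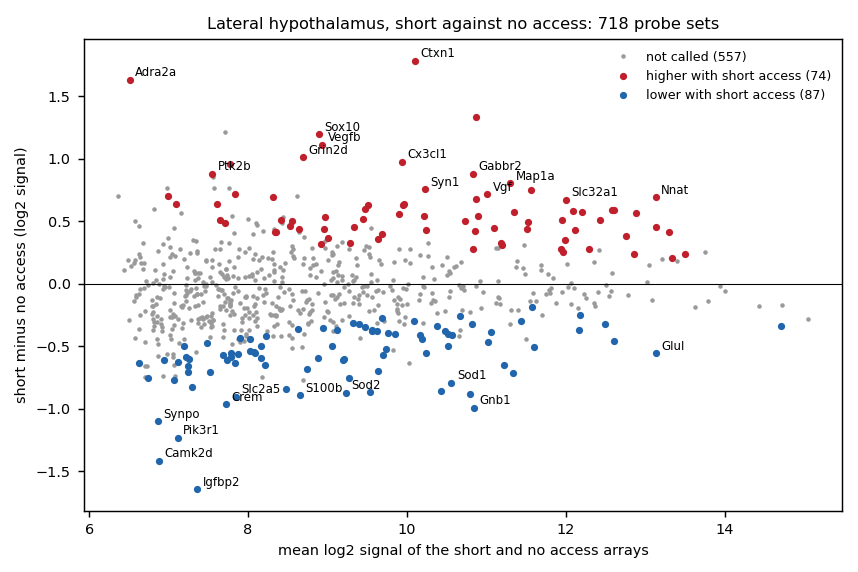
Difference of mean log2 signal, short minus no access, against mean log2 signal for the 718 probe sets tested in the lateral hypothalamus. Red points passed as higher with short access (74), blue points as lower (87) and grey points did not pass. The called differences run from 1.79 for Ctxn1 to -1.64 for Igfbp2.

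Ctxn1, which encodes cortexin, a small membrane protein of neurons, rose most. Its signal was 2316, 2307, 1741 and 1887 in short access arrays, against 698, 526, 657 and 515 in no access arrays. Every short access array was far above every no access array, a 3.45-fold difference (1.79 log2, SE 0.13, adjusted p = 8.49e-07).

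The promoter of Ctxn1 is printed because the gene had both the largest rise and the smallest p, and that of Camk2d because the gene fell under 3 of its 4 probe sets. Both are RefSeq windows of the GRCr8 build, 5′ to 3′ on the gene's strand, from 250 bases before the start to 50 after it. Capitals mark matches to the GC box letters GGGCGG on either strand.
Ctxn1, chr12:7409870-7410169, minus strand: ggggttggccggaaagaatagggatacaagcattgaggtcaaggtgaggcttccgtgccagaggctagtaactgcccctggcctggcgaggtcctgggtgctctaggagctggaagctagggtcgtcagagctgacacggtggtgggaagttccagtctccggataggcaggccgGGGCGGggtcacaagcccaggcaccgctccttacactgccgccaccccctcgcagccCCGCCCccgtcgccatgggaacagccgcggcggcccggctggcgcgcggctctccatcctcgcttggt
Camk2d, chr2:217698301-217698600, plus strand: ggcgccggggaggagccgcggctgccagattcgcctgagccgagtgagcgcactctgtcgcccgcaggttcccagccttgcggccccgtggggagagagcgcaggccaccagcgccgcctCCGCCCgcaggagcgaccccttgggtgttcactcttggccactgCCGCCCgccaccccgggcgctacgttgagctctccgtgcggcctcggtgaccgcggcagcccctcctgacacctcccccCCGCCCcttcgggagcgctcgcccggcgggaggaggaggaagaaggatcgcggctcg

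Adra2a, an alpha-adrenergic receptor that dampens transmitter release, had 174, 151, 196 and 128 in short access arrays and 42.2, 60.8, 38.9 and 71.6 in no access arrays. The groups did not overlap (1.63 log2, SE 0.22, adjusted p = 8.25e-05), but the no access signals lay close to the floor of 32 and the fold is accordingly uncertain. Sox10, a transcription factor of the oligodendrocyte lineage, had 639, 662, 786 and 800 with short access and 327, 305, 279 and 347 with no access. That is a 2.29-fold rise without overlap (1.20 log2, SE 0.11, adjusted p = 9.21e-06). Vegfb, a growth factor of the VEGF family, had 758, 744, 658 and 720 with short access and 345, 334, 362 and 290 with no access. It rose by 1.12 log2 (SE 0.11, adjusted p = 1.02e-05), again with no overlap.

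Grin2d, a subunit of the NMDA glutamate receptor, had 538, 685, 554 and 579 in short access arrays and 280, 331, 250 and 308 in no access arrays, 1.01 log2 higher. Its other probe set rose by 0.51. Cx3cl1, the chemokine fractalkine through which neurons signal to microglia, rose under 3 of 4 probe sets, by 0.98, 0.56 and 0.41, and the last gave -0.04. The remaining genes among the 15 largest rises were Ptk2b (0.88), a calcium-activated tyrosine kinase, Gabbr2 (0.88), Map1a (0.80), Syn1 (0.76), Pdgfa (0.75), Sod3 (0.72), Vgf (0.72), Clcn7 (0.70), a lysosomal chloride transporter, and Grk2 (0.69). Without short access replicate 3, Ptk2b no longer passed (adjusted p = 0.0516), and Clcn7 lost its call without any 1 of 5 arrays (highest adjusted p = 0.0747).

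Igfbp2, which binds insulin-like growth factors, had the largest fall. Its signal was 123, 75.6, 81.5 and 98.9 in short access arrays, against 145, 592, 154 and 540 in no access arrays. The groups did not overlap (-1.64 log2, SE 0.42, adjusted p = 0.0121), yet no access replicates 2 and 4 carried most of the difference. A second Igfbp2 probe set differed by -0.40 and did not pass (adjusted p = 0.444). Igf2, like Igfbp2 abundant in choroid plexus and meninges, was also high in those same no access arrays, with 756, 911, 651 and 964 in short access arrays and 560, 1302, 621 and 1136 in no access arrays. Its part in the fall of Igfbp2 was not tested.

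Camk2d, a subunit of calcium/calmodulin-dependent kinase, had 78.5, 73.7, 71.5 and 66.1 in short access arrays and 153, 223, 193 and 210 in no access arrays. The 2.67-fold fall (-1.42 log2, SE 0.20, adjusted p = 0.000182) was accompanied by falls of other probe sets, -0.83 and -0.41. The last of its probe sets gave -0.28 (adjusted p = 0.31). Gnb1, a G protein beta subunit, was lower under all 5 of its probe sets, by 0.85 to 0.99 in size. The one with the largest fall had 1205, 1371, 1193 and 1465 with short access and 3013, 2527, 2627 and 2262 with no access (-0.99 log2, SE 0.10, adjusted p = 1.02e-05). Short and no access arrays did not overlap for it.

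Pik3r1, the regulatory subunit of PI3 kinase, had 141, 65.8, 96.0 and 75.1 with short access and 413, 174, 238 and 121 with no access. Replicate 1 of short access lay above the lowest no access array (-1.24 log2, SE 0.34, adjusted p = 0.0179), and the call was lost without short access replicate 2 or no access replicate 1 (highest adjusted p = 0.0555). Synpo, an actin-binding protein of dendritic spines, fell by 1.10 log2 with overlap between groups, and passed in 2 of the 8 fits that left out 1 array. The others among the 15 largest falls were Crem (-0.96), Slc2a5 (-0.91), S100b (-0.89), Sod2 (-0.88), Sod1 (-0.79), Htr1d (-0.77), Kcns3 (-0.76), Glul (-0.71), Tgfb2 (-0.71) and Egr1 (-0.70). Htr1d lost its call without short access replicate 2 (adjusted p = 0.053), and Kcns3 without any 1 of 6 arrays (highest adjusted p = 0.105).

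**Figure D3:**
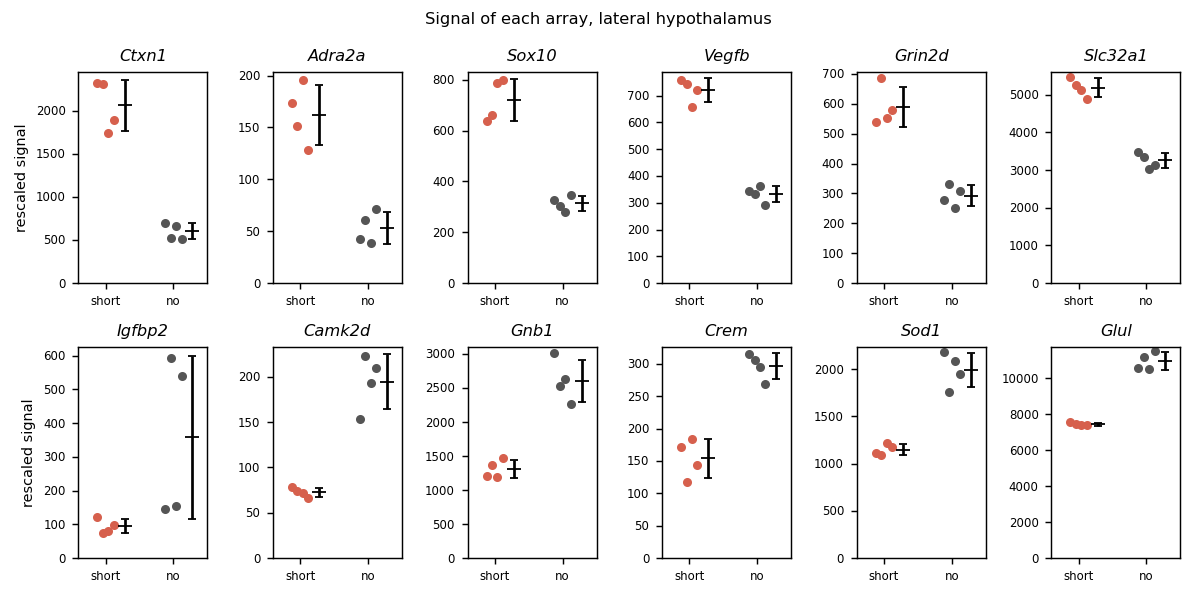
Rescaled signal of each short and no access array for 6 genes that rose (top) and 6 that fell (bottom) with short access in the lateral hypothalamus. Points are arrays, and bars the mean and SD of 4. Groups do not overlap in any panel, and for Igfbp2 the no access arrays split into 540 and 592 against 145 and 154.

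Genes with several probe sets gave a check on these calls within each array. Of 115 genes called, 54 had more than 1 probe set tested. In 8 of them every probe set was called the same way, among them Gnb1, Capns1 (4 of 4 higher, 0.41 to 0.59), the small subunit of the calpain proteases, Mag (3 of 3 higher) and Maoa (3 of 3 lower). In 45 some probe sets did not pass, and in 15 at least 1 had the other sign. Nptxr, a receptor for neuronal pentraxins, was called both ways, at 0.46 and -0.44, so no direction can be given for it. Besides those given with their own genes, other probe sets named here lost the call in at least 1 fit with an array left out. They were those of Arrb2, Tac1, Kcnh2, Kcnj11, Nrgn, Gria3, Ppp3ca, Scn1a, Atp1b2, Fgf2, Hrk, Eno2 and Map2k1, and 1 each of Cx3cl1 and Mag.

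Among hypothalamic peptides and hormones, 2 of 12 genes tested rose and 1 fell, with a median difference of 0.06 beside -0.07 over all 451 genes taken with 1 probe set each. Over all of those genes 8.87% were higher and 12% lower, and the count of each list below is to be read beside these shares. Nnat, neuronatin, an imprinted membrane protein abundant in hypothalamus, had 10559, 11880, 10817 and 12548 in short access arrays and 7036, 7183, 7062 and 7024 in no access arrays. The no access arrays were within a narrow band and all below the short access arrays (0.69 log2, SE 0.07, adjusted p = 9.36e-06). Vgf, a neurosecretory precursor whose peptides act on energy balance, had 2600, 2962, 2372 and 2690 with short access and 1709, 1792, 1449 and 1521 with no access, 0.72 log2 higher without overlap. Tac1, the substance P precursor, fell under both probe sets (-0.59 and -0.40).

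The classical hypothalamic peptides did not pass. Avp, vasopressin, differed by 0.20 and -0.01 under its 2 probe sets tested (adjusted p = 0.321 and 0.953). Gal, galanin, a peptide of many lateral hypothalamic neurons, had 662, 764, 781 and 918 with short access and 547, 769, 657 and 621 with no access, with overlap (0.27 log2, adjusted p = 0.171). Npy differed by 0.49 (adjusted p = 0.126), Sst by 0.17 and Pdyn by -0.06. Of 8 peptide and hormone receptors tested, only Npy1r, a neuropeptide Y receptor, was called (-0.63, adjusted p = 0.0338), and it lost the call without any 1 of 5 arrays. The orexin receptors Hcrtr1 (-0.27, adjusted p = 0.271) and Hcrtr2 (-0.11, adjusted p = 0.783) did not pass.

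GABA genes were called in both directions, 2 of 14 higher and 3 lower, beside 8.87% higher and 12% lower over all genes. Their median was -0.12. Slc32a1, the transporter that loads GABA into synaptic vesicles, had 5485, 5273, 5131 and 4878 in short access arrays and 3494, 3360, 3037 and 3140 in no access arrays. All short access arrays lay above all no access arrays (0.67 log2, SE 0.07, adjusted p = 1.02e-05), while a dimmer probe set of the gene gave 0.29 and did not pass. Gabbr2, a subunit of the metabotropic GABA-B receptor, had 2433, 2811, 2182 and 2498 with short access and 1510, 1233, 1338 and 1311 with no access (0.88 log2, adjusted p = 5.43e-05). Its 2 dimmer probe sets did not pass at 0.41 and 0.22. Lower were 3 genes of ligand-gated inhibitory channels, Gabra2 (-0.50, adjusted p = 0.0308), Gabrb2 (-0.56, adjusted p = 0.0319) and the glycine receptor gene Glra2 (-0.59, adjusted p = 0.00354). Gabra2 and Gabrb2 each lost the call without any 1 of 5 arrays (highest adjusted p = 0.0976 and 0.102). By their brightest probe sets Gabra3, Gabra5, Gabrb1, Gabrg1 and Gabrd did not pass, with differences from -0.18 for Gabrd to 0.07 for Gabrg1. Gad1, which makes GABA, differed by 0.31 (adjusted p = 0.0528).

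For ionotropic glutamate receptors 3 of 15 genes rose and none of the probe sets chosen fell, with a median of 0.17 that turned to -0.09 with the spike-in controls as a covariate. Besides Grin2d these were Grik5, a kainate receptor subunit (0.63, adjusted p = 0.00345), and Grina, a membrane protein named for its link to the NMDA receptor, whose 2 probe sets rose by 0.51 and 0.44. One of the 2 probe sets of Gria3, an AMPA receptor subunit, was lower (-0.63). Grid1, a delta receptor subunit, had 324, 411, 253 and 304 with short access and 189, 219, 35.2 and 241 with no access. The groups did not overlap but no access replicate 3 stood far below, and Grid1 did not pass (1.22 log2, adjusted p = 0.0692). None of 5 metabotropic glutamate receptors passed.

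Of 17 monoamine genes tested, Adra2a rose and 4 fell, at a median of -0.01. Both monoamine oxidases, which break down monoamines, were lower, Maoa under 3 probe sets (-0.50, -0.41 and -0.39) and Maob by 0.34 in size (-0.34, adjusted p = 0.0278). Maob lost the call without any 1 of 4 arrays (highest adjusted p = 0.085). Htr1d, a serotonin receptor, had 118, 89.4, 97.7 and 109 with short access and 183, 166, 179 and 173 with no access, which did not overlap. Ddc, which makes dopamine and serotonin from their precursors, was lower (-0.37, adjusted p = 0.0359) and lost the call without any 1 of 4 arrays. Th, the first enzyme of dopamine synthesis, differed by 0.33 (adjusted p = 0.13) and Slc6a3, the dopamine transporter, by -0.58 (adjusted p = 0.309), neither passing. Slc18a2, the vesicular monoamine transporter, was at the floor of 32 in 3 short access arrays and at 36.3 in the other, against 73.5, 47.1, 48.7 and 72.0 in no access arrays, too dim for the test. None of the 6 acetylcholine genes tested passed.

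Second-messenger genes formed a mixed picture. Among G protein and cyclic AMP genes 2 of 9 rose and 2 fell (median 0.15), beside 8.87% higher and 12% lower over all genes. Gnao1, the alpha subunit abundant in brain, had 1253, 1243, 1172 and 1305 with short access and 868, 941, 713 and 689 with no access under one probe set (0.64 log2, adjusted p = 0.000493), and 0.15 under the brighter one, which did not pass. Gnas, the stimulatory alpha subunit, rose likewise under 1 of 2 probe sets (0.45 and 0.26). Grk2, which switches off activated receptors, rose by 0.69 and the arrestin Arrb2 under 3 of 5 probe sets (0.33 to 0.53), whereas Pde4b, which degrades cyclic AMP, fell under both of its own (-0.64 and -0.55).

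Of 17 calcium and protein kinase C genes 1 rose and 4 fell (median -0.14), beside 8.87% higher and 12% lower over all genes. Pcp4, a regulator of calmodulin, had 2057, 1517, 2265 and 1858 in short access arrays and 2871, 2984, 3190 and 2904 in no access arrays, lower by 0.65 in size without overlap (-0.65, adjusted p = 0.000813). Camk2d, the calcineurin gene Ppp3ca (-0.26) and the kinase gene Prkcb (-0.38, with 2 other probe sets at -0.13 and 0.04 not passing) were lower as well. Nrgn, a calmodulin-binding protein of dendrites, rose under one probe set (0.36) and had the other sign under a second (-0.30, adjusted p = 0.133).

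In the lists of potassium, sodium and calcium channels, all 6 genes called by their brightest probe set were lower. These 3 lists had 14, 5 and 14 genes tested, and over all 451 genes 12% were lower and 8.87% higher. Among voltage-gated potassium channels 2 of 14 fell, Kcnc2 (-0.60, adjusted p = 0.00306), a channel of fast-spiking neurons, and Kcns3, a modulatory subunit. Dimmer probe sets of Kcnh2 (0.44) and Kcnj11 (0.41) rose, with their brighter ones at 0.10 and 0.03. The glial inward rectifier Kcnj16 (-0.65, adjusted p = 0.00521) and the leak channel Kcnk1 (-0.35, adjusted p = 0.0381, called in 2 of 8 fits with 1 array left out) were the 2 of 5 that fell in that family, whose median was -0.35. Sodium channel genes Scn1a (-0.61) and Scn8a (-0.60) were lower and the other 12 sodium and calcium channel genes did not pass. Scn8a had 125, 121, 137 and 113 with short access and 172, 189, 181 and 212 with no access, with no overlap. Among 6 ion pump genes Atp1b2 rose (0.50, with overlap) and Atp2b2 fell (-0.38).

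Synaptic vesicle genes gave 2 rises and 1 fall among 18 by the brightest probe set (median -0.11). The shares over all genes were 8.87% higher and 12% lower. Syn1, synapsin, which tethers vesicles, had 1612, 1649, 1478 and 1517 in short access arrays, against 864, 879, 799 and 1208 in no access arrays (0.76 log2, adjusted p = 0.000263). No access replicate 4 was nearest the short access arrays but still below them. Syn2 rose under 1 probe set (0.60) and gave -0.13 and -0.11 under the others, and Synj1, a lipid phosphatase of vesicle recycling, rose by 0.52. Of the release machinery itself, Snap25 (-0.07), Stx1a (0.11) and the vesicle protein gene Syp (-0.14) did not pass.

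Of 9 cytoskeleton genes 2 rose and none fell by the probe set chosen (median 0.08). Map1a, which stabilises microtubules of dendrites, had 3222, 3742, 2931 and 3472 with short access and 2258, 1675, 2026 and 1719 with no access (0.80 log2, adjusted p = 6.09e-05). Mapt, tau, had 7530, 7672, 7194 and 7737 with short access and 5227, 4924, 5270 and 4573 with no access under its brightest probe set (0.59 log2, adjusted p = 1.02e-05). Neither pair of groups overlapped. A second probe set of Mapt rose by 0.49 and the last gave -0.07. The neurofilament genes Nefl (-0.05) and Nefm (-0.21) did not pass.

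Activity-induced transcription factors that passed were lower. Egr1, an immediate early gene, had 674, 601, 646 and 594 in short access arrays and 1067, 1065, 888 and 1060 in no access arrays (-0.70 log2, SE 0.11, adjusted p = 0.000418), while its 2 other probe sets gave -0.20 and -0.07 and did not pass. Crem, a transcription factor that binds cyclic AMP response elements, had 171, 117, 184 and 143 with short access and 315, 306, 295 and 269 with no access, with no overlap (-0.96 log2, SE 0.15, adjusted p = 0.000418). Fos (-0.15), Junb (0.50, adjusted p = 0.218), Nr4a1 (-0.04) and Bdnf (0.09) did not pass. The list as a whole had 1 rise, Nptx2 (0.36, called in 2 of 8 fits with 1 array left out), and 2 falls among 12, with a median of -0.03.

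The cyclic AMP response element is spelled TGACGTCA and reads the same on both strands. The motif was chosen after the values of Crem were seen, and its matches describe sequence only. Among 35 genes called higher with a promoter in the RefSeq table, 5 held it (14.3%), against 1 of 56 called lower (1.79%), 13 of 346 tested (3.76%) and 549 of 27457 in the genome (2.00%). A gene counted where any of its 300-base windows matched. Stretches of 40 bases around the element, in capitals, are shown for 3 of those that rose and for Crem (GRCr8, 5′ to 3′ on the gene's strand).
Syn1, chrX:3725539-3725578, plus strand: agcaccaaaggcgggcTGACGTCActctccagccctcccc
Vgf, chr12:25277087-25277126, minus strand: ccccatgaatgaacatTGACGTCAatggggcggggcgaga
Gnao1, chr19:11198535-11198574, minus strand: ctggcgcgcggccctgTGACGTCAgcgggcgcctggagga
Crem, chr17:58984725-58984764, plus strand: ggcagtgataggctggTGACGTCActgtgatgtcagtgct

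The GC box, by comparison, was held by 80% of the promoters of genes called higher, 57.1% of those called lower and 58.7% of those tested. The median GC content of the windows was 65.7% for genes called higher, 60.7% for those called lower and 62.3% for those tested.

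Growth factor genes were called in both directions, 3 of 22 higher and 3 lower by the probe set chosen (median -0.13). Over all genes 8.87% were higher and 12% lower. Vegfb, Pdgfa and the neurotrophin receptor Ntrk2 (0.42, adjusted p = 0.00651) rose. Pdgfa, a mitogen of oligodendrocyte precursors, had 3433, 4323, 3524 and 4589 with short access and 2335, 2594, 2378 and 2075 with no access, and its 2 other probe sets did not pass (0.42 and 0.36). Pdgfra, the receptor of that factor, was lower (-0.57, adjusted p = 0.0045), as were Fgf2 (-0.66, adjusted p = 0.0289) and Tgfb2 (-0.71, adjusted p = 0.0105). Tgfb2 had 93.0, 129, 135 and 120 with short access and 170, 178, 198 and 233 with no access, without overlap.

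The superoxide dismutases, which detoxify superoxide in different compartments, split. Cytosolic Sod1 had 1107, 1090, 1220 and 1178 in short access arrays and 2181, 1756, 2081 and 1953 in no access arrays under one probe set (-0.79 log2, SE 0.10, adjusted p = 4.92e-05). Its brightest probe set fell by 0.25 and the last gave -0.21 (adjusted p = 0.35). Mitochondrial Sod2 had 430, 354, 443 and 571 with short access and 1013, 587, 968 and 758 with no access (-0.88 log2, adjusted p = 0.00607). Extracellular Sod3 had 332, 250, 331 and 274 with short access and 158, 181, 197 and 181 with no access (0.72 log2, adjusted p = 0.0113). The groups did not overlap for these 3 probe sets. Over the stress and antioxidant list 2 of 10 genes rose and 3 fell (median -0.13).

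Astrocyte genes were lower where they passed. By the brightest probe set, 3 of 10 fell and none rose, with a median of -0.35, and by any probe set 5 fell. With the opposite-strand controls as a covariate the median was 0.22. Glul, glutamine synthetase, by which astrocytes recycle glutamate, had 7557, 7474, 7401 and 7381 in short access arrays and 10576, 11220, 10524 and 11547 in no access arrays (-0.56 log2, SE 0.05, adjusted p = 9.21e-06). A second probe set of Glul fell by 0.71, and the other 2 did not pass, at -0.51 and, for one nearly as bright as the first, 0.01 (adjusted p = 0.918). The gap junction gene Gja1 (-0.56, adjusted p = 0.0104), Mt3, a metallothionein (-0.45, adjusted p = 0.0247), and Apoe, the main lipid carrier of brain (-0.34, adjusted p = 0.00605), were lower too. The brighter probe set of Apoe gave -0.28 and did not pass (adjusted p = 0.0826), and Mt3 lost its call without any 1 of 5 arrays (highest adjusted p = 0.0697). S100b, a calcium-binding protein of astrocytes, had 263, 262, 333 and 337 with short access and 460, 579, 588 and 585 with no access under one probe set (-0.89 log2), but its far brighter probe set gave -0.05 (adjusted p = 0.693). The glutamate transporters Slc1a2 (-0.18) and Slc1a3 (-0.16) did not pass by their brightest probe sets. In bulk tissue fewer cells of a type and less RNA per cell cannot be told apart.

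Of 7 oligodendrocyte genes tested 4 rose and 1 fell, with a median of 0.28. Beside Sox10 these were Mag, a myelin adhesion protein, with 5200, 4700, 4950 and 4175 in short access arrays and 3271, 3761, 3017 and 3289 in no access arrays (0.51 log2, adjusted p = 0.000485), Enpp2 (0.31, with -0.21 under a second probe set) and Cnp (0.28, adjusted p = 0.0265, with overlap). Cnp lost its call without any 1 of 5 arrays (highest adjusted p = 0.0754). The most abundant myelin gene measured, Mbp, differed by -0.17 (adjusted p = 0.218), and Mog, a surface protein of myelin, was lower (-0.19, adjusted p = 0.0413) but lost the call without any 1 of 7 arrays (highest adjusted p = 0.119).

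Of 6 microglia and immune genes tested 2 fell and none rose, and of 3 vessel genes 1 fell, beside 12% lower over all genes. Slc2a5, a fructose transporter found on microglia in brain, had 192, 208, 157 and 128 with short access and 381, 289, 296 and 305 with no access (-0.91 log2, adjusted p = 0.00354). B2m, a component of class I histocompatibility molecules, passed narrowly (-0.30, adjusted p = 0.0489) and lost the call without any 1 of 7 arrays. Slc2a1, the glucose transporter of brain capillaries, had 2242, 2432, 2952 and 2869 with short access and 3328, 4017, 3937 and 3612 with no access (-0.51 log2, adjusted p = 0.00651). Of the apoptosis genes, Hrk alone was called (0.64, adjusted p = 0.0199) among 11, and its other probe set gave -0.04.

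**Figure D4:**
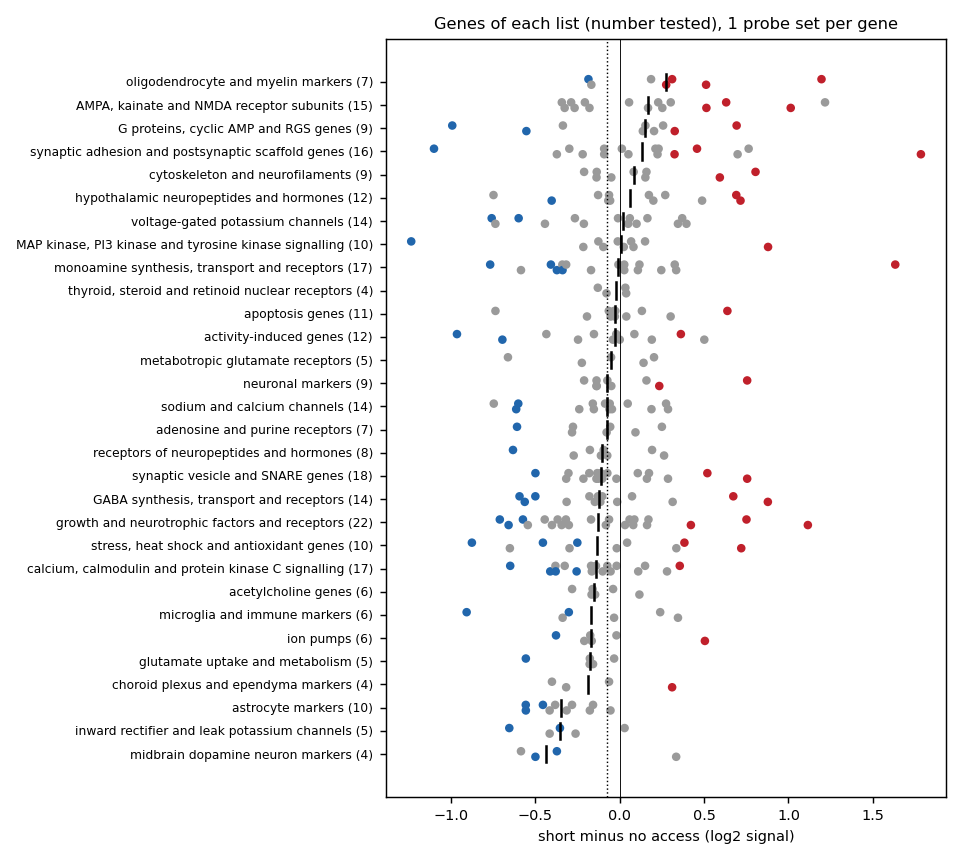
Difference in log2 signal, short minus no access, for each gene of lists with at least 4 genes tested, 1 probe set per gene. Red and blue points passed as higher and lower, grey ones did not, black bars are list medians and the dotted line is the median of all genes (-0.07). Medians run from 0.28 for oligodendrocyte genes to -0.44 for midbrain dopamine neuron genes.

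The sign of many list medians depended on the scaling or on control signals taken as a covariate. With quantile normalization those of peptide receptors (0.03), metabotropic glutamate receptors (0.03), monoamine genes (0.07), sodium and calcium channels (0.01), activity-induced genes (0.09) and apoptosis genes (0.02) turned positive and that of cytoskeleton genes turned just negative. The other lists with at least 4 genes tested kept their sign under that scaling. With the spike-in controls as a covariate the medians of ionotropic glutamate receptors (-0.09) and voltage-gated potassium channels (-0.11) turned negative. With the opposite-strand controls as a covariate 16 of the 30 lists of that size changed sign, among them monoamine genes (0.62), acetylcholine genes (0.91), voltage-gated potassium channels (-0.30), synaptic vesicle genes (0.25), growth factor genes (0.28), apoptosis genes (0.45) and neuronal markers (0.12). Lists with medians farther from 0 changed sign too. Midbrain dopamine neuron markers went from -0.44 to 0.04, astrocyte markers from -0.35 to 0.22 and choroid plexus markers from -0.19 to 1.14.

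Summed marker signals of the tissue's cell types also differed between the groups. Astrocyte markers, 7 with a probe set tested and 1 of them called, summed to 53236 to 65487 with short access and 66841 to 75267 with no access. Most of that difference came from Apoe, which was not called by the probe set used, and Glul, which was. Mean signals were 30908 with short access and 37540 with no access for Apoe, and 7453 and 10967 for Glul. The other astrocyte markers had lower mean signals too, by smaller amounts. Neuronal markers, 2 of 6 called higher, summed to 26717 to 27708 with short access and 24969 to 25954 with no access. The 2 called were Syn1 and Eno2, and Eno2 had a mean signal of 12599 with short access and 10690 with no access. Snap25, Syp, Nefl and Map2 had lower mean signals with short access, so the higher sum rested on the 2 called. Hypothalamic markers, 1 of 6 called higher, ran from 33826 to 40880 with short access and from 29802 to 32131 with no access. The 1 called was Nnat, whose mean signal was 11451 with short access and 7076 with no access. None of these 3 overlapped (two-sided exact permutation p = 0.0286 each, 0.05 adjusted over 14 measures). Oligodendrocyte markers overlapped, at 47410 to 54999 with short access and 48097 to 54446 with no access (exact permutation p = 0.743). Midbrain dopamine markers summed to 1487 to 1938 with short access and 1883 to 2208 with no access (exact permutation p = 0.0571), small sums beside the others, and Itpka, a marker of cortex, was at the floor on every array. Sums of striatal, microglial and vessel markers were lower with short access without overlap (exact permutation p = 0.0286 each), the last resting on Slc2a1 alone. Most of the striatal fall came from Tac1, with mean signals of 809 with short access and 1075 with no access. The microglial fall came from B2m, with 2502 and 3082. Mean signals of C4b, C3 and Tspo, and of Drd2 among striatal markers, were higher with short access. The part of these sums in the gene results was not tested.

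Long access arrays gave values for the same genes that can be set beside those of short access, although both differences use the same no access arrays. Against the no access arrays, Ctxn1 was 1.79 log2 higher after short access and 1.75 after long access, Sox10 1.20 and 1.14, Slc32a1 0.67 and 0.69, and Nnat 0.69 and 0.79. For falls, Gnb1 was -0.99 with short access and -1.06 with long access, Camk2d -1.42 and -1.28, and Egr1 -0.70 and -0.72. Other genes were farther apart. Glul was -0.56 with short access and -0.21 with long access, Hrk 0.64 and -0.14, Scn8a -0.60 and 0.22, and Atp1b2 0.50 and 1.39. Compared directly, long and short access differed in 64 of 718 probe sets (8.91%), 5.01% higher and 3.90% lower with long access.

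In the other 5 regions short access was accompanied by few calls. None of 738 probe sets passed in the nucleus accumbens (75 at an unadjusted p under 0.05), none of 732 in the amygdala (32) and none of 680 in the medial prefrontal cortex (2), all in limma. In the septum 14 of 736 passed (1.90%), 3 higher and 11 lower, and in the ventral tegmental area 6 of 722 (0.831%), 3 in each direction. The nucleus accumbens and amygdala had 4 arrays per group and the other regions 3. Their median standard errors were 0.143 in the septum, 0.150 in the nucleus accumbens, 0.162 in the ventral tegmental area, 0.218 in the amygdala and 0.297 in the medial prefrontal cortex, beside 0.151 in the lateral hypothalamus.

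The effect itself was then compared between regions in a fit of all 63 arrays. Each access group had 8 rats and 21 arrays, so arrays of different regions share rats. The labels do not tie arrays to rats, and the fit treats the arrays as independent. The short access difference in the lateral hypothalamus departed from the mean of the other 5 regions in 59 of 858 probe sets (6.88%), 38 of them more positive (4.43%) and 21 more negative (2.45%). The firmest departure was that of a probe set without a gene name (difference of effects -2.67, adjusted p = 4.91e-10). Among named genes Ctxn1 differed most firmly, with 1.79 in the lateral hypothalamus and between -0.26 and 0.17 elsewhere (difference of effects 1.83, SE 0.22, adjusted p = 2.77e-08). Grin2d (1.04, adjusted p = 6.13e-06), Slc32a1 (0.65, adjusted p = 8.13e-05), Adra2a (1.83, adjusted p = 0.000182), Vgf (0.76, adjusted p = 0.000203), Sox10 (1.24, adjusted p = 0.00376) and Camk2d (-1.42, adjusted p = 0.00187) departed as well. Not all of them were near 0 elsewhere. Adra2a ran from -1.23 (SE 0.30) in the amygdala, which enlarged its departure, to 0.38 in the nucleus accumbens. Camk2d ran from -0.53 in the amygdala to 0.45 in the septum.

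The opposite-strand controls moved with this comparison as well. They ran from 6.73 to 7.09 log2 with short access and from 7.84 to 8.33 with no access in the lateral hypothalamus. In the other regions short minus no access differences of the controls were 0.02 in the septum, 0.04 in the nucleus accumbens, 0.09 in the medial prefrontal cortex and -0.46 in the amygdala, all with overlap, and 0.31 in the ventral tegmental area, where they were higher with short access without overlap. With these controls as a covariate, a fit chosen after seeing the data, 7 of 858 probe sets departed and 103 had an unadjusted p under 0.05 in limma. Of the 59, 57 kept their direction and 5 passed, among them Ctxn1 (1.29, adjusted p = 0.00269), Grin2d (1.10, adjusted p = 0.000684) and Syn2 (0.70, adjusted p = 0.0245). The unnamed probe set with the firmest departure passed too (-2.21, adjusted p = 5.00e-05). Adra2a (1.56, adjusted p = 0.0542), Vgf (0.60, adjusted p = 0.0897), Slc32a1 (0.46, adjusted p = 0.0906), Sox10 (0.71, adjusted p = 0.409) and Camk2d (-0.31, adjusted p = 0.761) did not pass in that fit. In the fit without that covariate, leaving out 1 lateral hypothalamus array at a time gave 27 to 51 departing probe sets in place of 59. There were 27 without no access replicate 4 and 32, 39 and 38 without short access replicates 1, 2 and 4.

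Other departures rested on dim signals, and those of Tgfb1 and Pdgfb have no reliable size, since their no access signals lay at the floor of 32. Tgfb1, a growth factor that restrains immune cells, had 113, 120, 154 and 196 in short access arrays, whereas 3 no access arrays were at the floor and the other at 67.2 (fitted difference of effects 1.93, adjusted p = 0.00376). In the ventral tegmental area and medial prefrontal cortex it was at the floor in both groups. Pdgfb had 63.8, 58.0, 83.9 and 97.4 with short access and was at the floor in all no access arrays (fitted difference of effects 1.39, adjusted p = 0.0352). Ctsk, a lysosomal protease, had 56.1, 75.0, 80.5 and 71.6 with short access and 126, 132, 86.7 and 180 with no access (-0.92, adjusted p = 0.0204). One dim probe set of the astrocyte transporter Slc1a3 was at 46.7, 44.5, 44.9 and 61.1 with short access and at 119, 141, 99.6 and 162 with no access (-1.32, adjusted p = 0.0483), although its brighter probe sets did not pass in the lateral hypothalamus. The other departures named by size were Grid1 (1.53), Gcm1 (-1.14), Kcnj5 (-0.92) and Slc2a5 (-0.93). Gcm1 was at the floor in 2 short access arrays and at 116 and 95.0 in the others. With no access it had 92.1, 96.3, 103 and 160, with overlap, so its size is not reliable either. The groups of Kcnj5 overlapped too.

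Not every change was shown to depart from other regions. One probe set of Gnb1 had 269, 264, 280 and 255 with short access and 395, 589, 384 and 593 with no access in the lateral hypothalamus (-0.85), and it was also lower in the ventral tegmental area (-0.96, adjusted p = 0.00874). In the nucleus accumbens it differed by -0.96 without passing (adjusted p = 0.118), and the difference of effects was -0.06 (adjusted p = 0.917). A different Gnb1 probe set, with -0.99 in the lateral hypothalamus, lay between -0.26 and 0.04 elsewhere (difference of effects -0.89, adjusted p = 0.0102). Sod1 and one Mag probe set, both called in the lateral hypothalamus, were called in the ventral tegmental area too (-0.57, adjusted p = 0.0143, and 0.61, adjusted p = 0.0115). Pik3r1 was negative in all 6 regions, from -0.22 in the amygdala to -1.24 in the lateral hypothalamus (difference of effects -0.56, adjusted p = 0.547). In the septum the smallest p-values were those of Nptxr (-1.14), Sst (-0.61) and a dim Ptk2b probe set (-0.59), and in the lateral hypothalamus the same Sst probe set differed by 0.17 without passing.

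**Figure D5:**
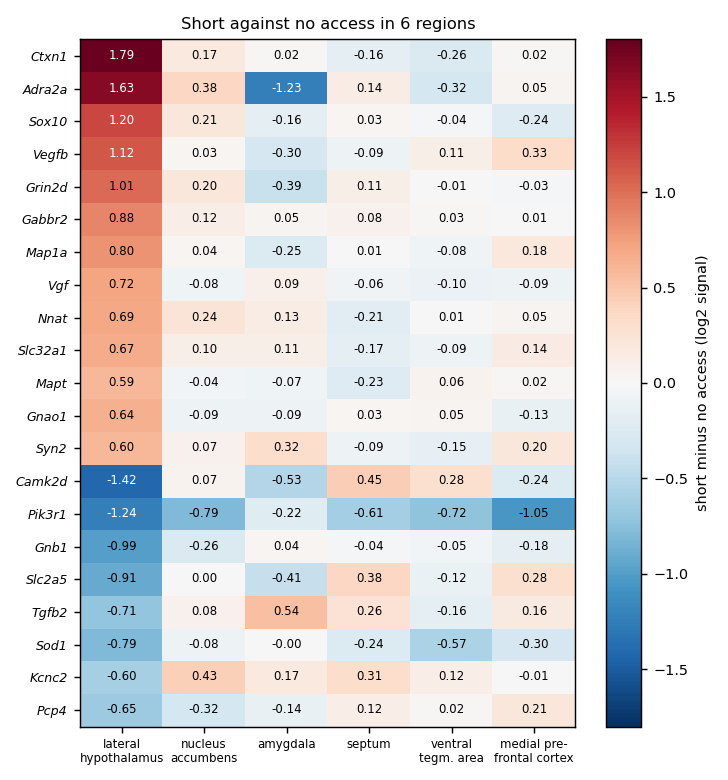
Short minus no access difference in log2 signal of 21 genes in the lateral hypothalamus and the other 5 regions, from 1 fit of all arrays. The lateral hypothalamus column runs from 1.79 (Ctxn1) to -1.42 (Camk2d), while Ctxn1 lies between -0.26 and 0.17 in the other columns and Pik3r1 is negative in all 6.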

How the data were processed

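The deposited values are linear signal intensities per probe set of Affymetrix rat neurobiology arrays, made by the authors with MAS5, per the submitters' processing notes. The version, scaling and detection calls of MAS5 are not stated in these notes. Total RNA, 1 to 5 µg, was the input for biotinylated cRNA, per the labels' protocols. All 63 arrays were used, and none had values identical to another's. Arrays give no counts or depths, and precision is limited by their number.

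Of 1322 probe sets, 59 controls were left out of tests. Of the other 1263, 1137 had 1 gene symbol in the platform annotation, 8 several and 118 none, and 1132 were matched by Entrez identifier to RefSeq. Names from 565 probe sets with a suffix for possible cross-hybridisation are less certain. Signals were multiplied to give every array a 2% trimmed mean of 500, raised to a floor of 32 and converted to log2. Testing needed a mean of at least 100 over the 12 lateral hypothalamus arrays. Fold changes compare means of log2 signal. They understate changes of dim genes.

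Short and no access were contrasted with limma 3.58.1 (R 4.3.3) in a linear model that also held the long access arrays, using moderated variances with a trend on signal. All p-values were adjusted by Benjamini and Hochberg's method over the probe sets tested, and 0.05 was the threshold. To compare the effect with that in the other 5 regions, all 63 arrays were modelled as 18 groups. Tested on simulated data for short against no access in the lateral hypothalamus (701 probe sets), this fit called 66.7% of 96 changes of 0.5 log2, 99.0% of 96 changes of 1 and 1.38% of 509 unchanged. Single measures were compared by exact permutation with numpy 2.4.6, and scipy 1.17.1 gave the trimmed means used for scaling.

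The region, the 31 gene lists, the markers and the named genes were chosen with earlier results of these data known. Within lists the probe set with the highest mean signal stands for its gene. Named genes are the 15 largest rises and falls, the 8 smallest p in each direction, up to 3 called members of each list, the 6 largest departures from other regions in each direction, the 3 smallest p in each other region and 9 fixed peptide and dopamine genes, and further list members are given with their values to complete a count. Alternatives tried were other scaling (as deposited, quantile), no floor, other filters, no trend, array weights, a replicate block, fewer or more arrays in the fit, control signals as covariates (for the comparison between regions, the opposite-strand signals were added after seeing the data), a fold threshold and leaving out each array. Replicate numbers were not treated as pairs, since the deviations of arrays with the same number correlated by 0.24, 0.11, 0.05 and 0.09. Within groups some signals set replicates 1 and 3 apart from 2 and 4. Spike-in means were 12.17, 11.94, 12.18 and 11.94 log2 with no access and 11.42, 11.84, 11.35 and 11.85 with short access. Those of long access (11.50, 11.47, 11.36 and 11.23) did not pair so. Whether such arrays share a source was not tested, and if they do, the p-values are too small.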

Additional observations from a re-analysis of the deposited data

Results flagged for a closer look

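In 8 of 176 groups of 4 arrays checked for the named probe sets, 1 array stood far from the other 3, and chance alone marks about 1 group in 20. With short access these were replicate 4 for a dim Slc1a3 probe set (61.1, above the others) and, for the dim gene Slc18a2, replicate 2 under one probe set (36.3) and replicate 3 under the other (46.4), where the rest were at the floor. With no access they were replicate 1 for S100b (460, below the others) and for Ddc (773, above), replicate 3 for Egr1 (888, below) and for Grid1 (35.2, below), and replicate 2 for Tgfb1 (67.2, above arrays at the floor). No single array accounted for most of these.

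The short access effect in the lateral hypothalamus departed from the mean effect in the other 5 regions, by the limma test of that difference, for 35 named probe sets. Those with a more positive effect in the lateral hypothalamus, in log2 units, were Ctxn1 (1.83), Adra2a (1.83), Grid1 (1.53), Sox10 (1.24), Vegfb (1.10), Grin2d (1.04), Ptk2b (1.02), Cx3cl1 (0.89), Gabbr2 (0.82), Map1a (0.82), Vgf (0.76), Hrk (0.71), Gnao1 (0.69), Pdgfa (0.68), Nnat (0.65), Slc32a1 (0.65), Mapt (0.65), Grik5 (0.60), Mag (0.56) and Syn2 (0.53). Tgfb1 (1.93) and Pdgfb (1.39) were more positive too, but 3 and 4 of their 4 no access arrays were at the floor, so these fitted values give no size. Those with a more negative effect were Camk2d (-1.42), Slc1a3 (-1.32), Gcm1 (-1.14), Slc2a5 (-0.93), Kcnj5 (-0.92), Ctsk (-0.92), Gnb1 (-0.89), Tgfb2 (-0.89), Slc18a2 (-0.83), Kcnc2 (-0.80), Glra2 (-0.68), Pcp4 (-0.63) and Apoe (-0.36). Genes of neurons, of oligodendrocytes and of astrocytes are all among them. Tgfb1, Pdgfb, Slc1a3, Gcm1, Kcnj5, Ctsk and Slc18a2 were dim in the lateral hypothalamus and not tested there alone. At the floor were 2 of the 4 short access arrays for Gcm1 and 3 for Slc18a2, so their fitted values give no reliable size.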

How the results depend on the processing

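The count of 161 probe sets that differed between short and no access in the lateral hypothalamus stayed between 135 and 168 under every other scaling, floor, filter or weighting tried: 135 after quantile normalization, 150 from the short and no access arrays alone, 151 at a mean signal of at least 200, 154 without the trend, 161 without the floor, 162 with signals as deposited, 165 with array weights and 168 without a filter, and was 113 to 154 with 1 array left out. It was 87 without probe sets that can cross-hybridise, where fewer were tested, 63 in 1 fit of all 63 arrays, where standard errors were 1.5 times as large at the median, 66 with a 1.5-fold threshold, 68 with the spike-in controls as a covariate, where all 161 kept their direction, and 0 with the opposite-strand controls as a covariate (114 at an unadjusted p under 0.05 in limma). In all 8 fits that left out 1 array, 95 of the 161 were called, and 66 lost the call at least once. The probe sets called changed more than their count. Of the 161, 120 were still called after quantile normalization, 129 without a filter and 62 with the spike-in covariate.

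With the opposite-strand covariate these named genes changed sign, and the cause was not tested: Igfbp2 (1.60), S100b (0.0451), Tac1 (0.10), Grik5 (-0.14), Map2k1 (0.39), Nptx2 (-0.13), Nptxr (-0.37), Apoe (0.13), Slc2a1 (0.31), Avp (0.20) and Slc6a3 (2.24). With the spike-in covariate Oxt (0.0418) and Avp (0.46) did. The Avp probe set near 0 ran from -0.15 to 0.11 with 1 array left out.

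The replicate number as a block gave 203 probe sets for short against no access and 105, against 59, for the departure from other regions. Same-numbered arrays correlated best with each other only for replicate 2, so that the numbers were not taken as pairs. That departure count was 35 without probe sets that can cross-hybridise and 27 to 51 with 1 array left out, at 27 without no access replicate 4 and 32, 39 and 38 without short access replicates 1, 2 and 4. With the opposite-strand controls as a covariate, chosen after seeing the data, it was 7. Signals at the floor of 32 have no order, and 0 of the 161 probe sets called had an array there.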

Other observations

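Several probe sets outside the gene lists, picked after their values were seen, passed as well. Svop, a vesicle protein related to transporters, had 486, 466, 335 and 359 in short access arrays and 273, 309, 284 and 276 in no access arrays (0.51 log2, adjusted p = 0.0104). Eef2, which moves ribosomes along the message, rose under one probe set (0.44, adjusted p = 0.0102) and gave 0.27 under the other (adjusted p = 0.0826). Fez1, an adaptor for axonal transport, was higher by 0.28 log2 (adjusted p = 0.0125). In none of the 3 called probe sets did the groups overlap.

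Lower ones included Slco1a4, an organic anion transporter found at the blood-brain barrier, with 935, 1052, 1094 and 946 in short access arrays and 1305, 1467, 1306 and 1395 in no access arrays (-0.44 log2, adjusted p = 0.00306). Serpine2, a secreted protease inhibitor (-0.40, adjusted p = 0.0111), and Tfrc, the transferrin receptor (-0.50, adjusted p = 0.0265), were lower without overlap. Canx, a chaperone of the endoplasmic reticulum, was lower with overlap (-0.47, adjusted p = 0.0253). Tfrc lost its call without any 1 of 4 arrays (highest adjusted p = 0.0705) and Canx without any 1 of 5 (highest adjusted p = 0.0714).

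One probe set that the annotation does not name rose more than any named gene except Ctxn1 and Adra2a, with 3522, 2822, 3161 and 2487 in short access arrays and 1149, 1425, 1110 and 1052 in no access arrays (1.34 log2, SE 0.14, adjusted p = 1.02e-05).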
